A study of Mus musculus with 2 samples.

Results

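The let-7 family of microRNAs (miRNAs) was examined in the lung of B6NCrl mouse embryos at embryonic day 14.5. Its members were every counted gene with a mouse symbol beginning with Mirlet7, plus Mir98, which gave 10 of the 1973 miRNA genes listed. The data were miRNA-seq counts of total RNA selected below 30 nt, from 2 libraries labelled as biological replicates, with no treatment, altered genotype or second stage. The labels describe one lung from one pup per library and a mixed sex, so the number of embryos behind each library is uncertain. Collection days also differed, and day cannot be told apart from replicate. The libraries held 10200412 reads (replicate 1) and 4544184 reads (replicate 2), with 5128214 and 2332032 of them assigned to miRNA genes in the sense direction. Levels are given in counts per 1000000 such counts (CPM). A read of a mature miRNA spans nearly the whole molecule, so CPM were not divided by length.

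A miRNA guides the Argonaute protein to messenger RNAs that pair with its seed, which is bases 2 to 8 counted from the 5′ end, and so lowers the output of those messages. let-7 miRNAs are known to restrain growth-promoting messages such as those of Hmga2, Myc and Lin28, and their levels climb as embryonic cells leave the stem or progenitor state. The LIN28 proteins in turn bind let-7 precursors and hold back their maturation. Each gene makes a hairpin with 2 arms, of which the 5p arm gives the active let-7 miRNA.

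All 10 members matched a hairpin in the RefSeq miRNA table (GRCm38.p6), and they encode 8 distinct 5p sequences of 22 nt. These are shown because the counts below separate by whether a 5p sequence is found, as an exact match, in 1 hairpin or in 2. Capitals mark the seed, which was identical in all 8.
let-7g-5p (Mirlet7g): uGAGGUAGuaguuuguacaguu
let-7i-5p (Mirlet7i): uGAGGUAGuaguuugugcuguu
let-7d-5p (Mirlet7d): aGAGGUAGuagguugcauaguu
miR-98-5p (Mir98): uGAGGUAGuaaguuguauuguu
let-7b-5p (Mirlet7b): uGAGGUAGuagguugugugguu
let-7f-5p (Mirlet7f-2): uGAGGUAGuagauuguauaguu
let-7a-5p (Mirlet7a-1 and Mirlet7a-2): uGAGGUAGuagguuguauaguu
let-7c-5p (Mirlet7c-1 and Mirlet7c-2): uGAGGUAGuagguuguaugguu

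The sequences outside the seed differ by few bases. Counted from 1 at the 5′ end and with the base of let-7a-5p first, let-7c-5p differs by A19G alone and let-7f-5p by G12A alone. The remaining ones differ from let-7a-5p by A17G and A19G in let-7b-5p, by U1A and U16C in let-7d-5p, by G11A and A19U in miR-98-5p, and by G12U and U18C in let-7g-5p. The most distant is let-7i-5p, with 4 substitutions (G12U, A17G, U18C and A19U), and its closest relative is let-7g-5p, from which it differs by A17G and A19U. Reads that fit more than 1 place in the genome were set aside in the deposited tables as multimapping and reached no gene. They made up 32.9% of reads in replicate 1 and 33.1% in replicate 2.

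Of the counted miRNA reads in these lungs, the 10 members together held 11.96% ± 0.498 (SD, n = 2). The family had 631347 counts in replicate 1, a share of 12.3% (95% exact binomial interval 12.28 to 12.34), and 270679 counts in replicate 2, a share of 11.6% (11.57 to 11.65). These intervals describe counting error alone and treat each read as independent. PCR can copy a molecule into many reads, so they may be too narrow even for that error. Mirlet7g, Mirlet7i, Mirlet7d and Mir98 made up 94.5% of the family's counts in replicate 1 and 93.8% in replicate 2. The multimapping reads were 5.32 and 5.56 times as many as the family's own counts. If none of them came from the family, its share of counted plus multimapping reads would be 7.25% ± 0.27 (n = 2), and if all of them did, 46.6% ± 0.537. For the 10 members the files set only these bounds. The let-7 genes Mirlet7e and Mirlet7f-1 have no row among the counts, so reads placed at those genes alone are outside the bounds.

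Mirlet7g was the most abundant member and ranked 4 among all miRNA genes in both libraries. It had 263320 counts (51347 CPM) in replicate 1 and 118743 counts (50918 CPM) in replicate 2. The mean was 51133 CPM ± 303 (SD, n = 2), so the libraries nearly coincided in CPM. The gene lies at chr9:106178840-106178927 on the plus strand (mm10) in an intron of Wdr82, which encodes a subunit of a histone methyltransferase complex. In order of mean CPM its neighbours outside the family were Mir335 above (64639 CPM ± 5836) and Mir322 below (46826 CPM ± 5454), and neither overlapped its range over the libraries.

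Mirlet7i, the second member, had 217459 counts (42404 CPM) in replicate 1 and 84869 counts (36393 CPM) in replicate 2, a mean of 39399 CPM ± 4251 (n = 2). It was the member with the widest gap between libraries in CPM, and ranked 6 in replicate 1 and 8 in replicate 2. Mirlet7g exceeded it 1.21-fold in replicate 1 and 1.40-fold in replicate 2. The gene lies alone at chr10:122985640-122985724 on the minus strand, within an annotated exon of D630033A02Rik, a transcribed pseudogene. Next to it in mean CPM stood Mir322 above, with a range just clear of its own, and Mir10a below (37322 CPM ± 2937), with a range that overlapped it.

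Mirlet7d and Mir98 followed at markedly lower levels, and Mirlet7i exceeded Mirlet7d 2.94-fold in replicate 1 and 2.61-fold in replicate 2. Mirlet7d had 73884 counts (14407 CPM) and 32556 counts (13960 CPM), a mean of 14184 CPM ± 316 (n = 2). Its neighbours in rank were Mir20a (14271 CPM ± 2627) and Mir429 (14134 CPM ± 1153), whose ranges both included that of Mirlet7d. Mir98, a let-7 miRNA by its seed despite its name, had 41670 counts (8126 CPM) and 17861 counts (7659 CPM), a mean of 7892 CPM ± 330. It was lower than Mirlet7d by a factor of 1.77 in replicate 1 and 1.82 in replicate 2.

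Mirlet7b was the lowest of the 5 members whose 5p sequence occurs in a single RefSeq hairpin. It had 21165 counts (4127 CPM) in replicate 1 and 9637 counts (4132 CPM) in replicate 2. The mean was 4130 CPM ± 3.73 (n = 2), the smallest SD in CPM of the family. These 5 members ranged from 4130 to 51133 CPM in the mean of both libraries, with a median of 14184 CPM.

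**Figure D1:**
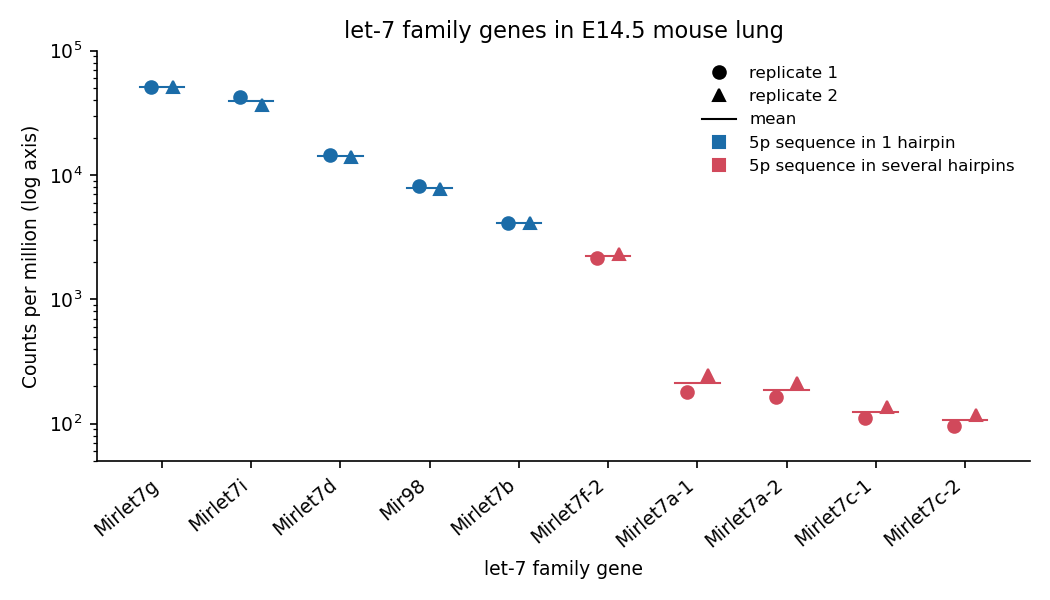
Level in CPM of each let-7 family gene on a log axis, with a circle for replicate 1, a triangle for replicate 2 and a line for their mean. Genes whose 5p sequence lies in 1 hairpin (blue) range from 4130 to 51133 CPM in the mean, and all lie above the genes whose 5p sequence lies in 2 hairpins (red, 107 to 2224 CPM).

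The other 5 members carry a 5p sequence that is present in 2 hairpins, and all 5 were counted lower than every single-locus member in both libraries. Their mean levels ran from 107 to 2224 CPM with a median of 188 CPM, and together they held only a small share of the family's counts, 2.19% in the first library (Clopper-Pearson interval 2.16 to 2.23) and 2.59% in the second (2.53 to 2.65). Reads of such a sequence alone fit both loci, and how many of the multimapping reads were theirs was not tested. Whether reads of a close relative were placed at these loci was not tested either, so the counts bound the genes' output in neither direction. No level of let-7a, let-7c or let-7f as a miRNA can be read from them.

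Mirlet7f-2 stood out among these copies. It had 11033 counts (2151 CPM) in replicate 1 and 5358 counts (2298 CPM) in replicate 2, a mean of 2224 CPM ± 103 (n = 2). Mirlet7a-1 had 921 counts (180 CPM) and 568 counts (244 CPM), a mean of 212 CPM ± 45.2. Mirlet7f-2 was 11.98-fold above Mirlet7a-1 in replicate 1 and 9.43-fold in replicate 2.

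Mirlet7a-2 had 837 counts (163 CPM) and 495 counts (212 CPM), a mean of 188 CPM ± 34.7 (n = 2). It was below Mirlet7a-1 in each library, but the ranges of the 2 genes over the libraries overlapped. Mirlet7c-1 had 564 counts (110 CPM) and 319 counts (137 CPM), a mean of 123 CPM ± 19.0. Mirlet7c-2, the lowest member, had 494 counts (96.3 CPM) and 273 counts (117 CPM), a mean of 107 CPM ± 14.7, and its range overlapped that of Mirlet7c-1. The other 7 neighbouring pairs in the order of the family kept their order with ranges that did not overlap. From Mirlet7g to Mirlet7c-2 the counts differed 533-fold in replicate 1 and 435-fold in replicate 2.

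**Figure D2:**
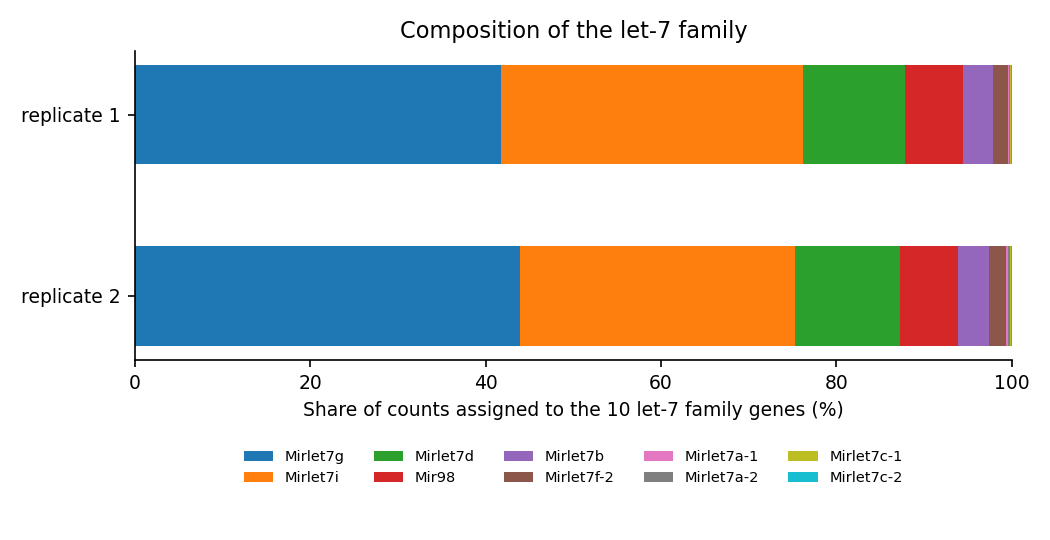
Share of the family's counts taken by each let-7 gene, as a stacked bar per library. Mirlet7g takes 41.7% and 43.9%, Mirlet7i 34.4% and 31.4%, and the 4 genes of let-7a and let-7c are slivers at the right edge, each at most 0.21%.

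A read can be placed at one copy only through bases that the copies do not share, and these lie outside the 5p sequence or in the other arm. The 5p sequences of the duplicated members are shown with the base before and the 2 bases after them in the hairpin, in capitals. Mirlet7f-1, the second hairpin with let-7f-5p, has no row among the counts and was not analysed here.
Mirlet7f-2: AugagguaguagauuguauaguuUU
Mirlet7f-1: GugagguaguagauuguauaguuGU
Mirlet7a-1: AugagguaguagguuguauaguuUU
Mirlet7a-2: UugagguaguagguuguauaguuUA
Mirlet7c-1: UugagguaguagguuguaugguuUA
Mirlet7c-2: GugagguaguagguuguaugguuUU

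One base beyond the 3′ end is enough to tell Mirlet7f-2 from Mirlet7f-1, whereas 2 bases are needed for the pairs of let-7a and let-7c. One base before the 5′ end tells the copies of every pair apart. The 3p arms add to this unequally. The 3p sequence of Mirlet7f-2, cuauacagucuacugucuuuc, occurs in no other RefSeq hairpin, and neither do those of Mirlet7a-2 and Mirlet7c-1. Mirlet7a-1 and Mirlet7c-2 share the same 3p sequence, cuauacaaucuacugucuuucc, so for these genes neither annotated arm is specific to the locus. The deposited counts do not separate the arms, and which reads gave the counts of the duplicated members was not tested. Matches were sought in the 1005 RefSeq hairpins and not in the rest of the genome.

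When 1 mismatch was allowed, fewer members had a sequence of their own. Mirlet7g, Mirlet7d and Mir98 still matched a single hairpin, while let-7b-5p also matched both let-7c hairpins and let-7i-5p also matched Mir7j. By that rule the levels no longer separate, because Mirlet7i (39399 CPM) and Mirlet7b would join the members with a shared sequence, and Mirlet7i lies above Mirlet7d and Mir98. The 3 members left held 60.01% of the family's counts in replicate 1 and 62.5% in replicate 2. How many mismatches the deposited alignments allowed is not given in the sources used here.

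LIN28 is known to recognise the letters GGAG in the stretch between the arms of let-7 precursors. These letters, searched anywhere in the hairpin RNA on its own strand, were present in 7 of the 10 members. They were present in 44.5% of all 1005 hairpins, which were shorter, with a median of 79 nt against 94 nt for the members. The stretch between the arms of Mirlet7g, the most abundant member, is shown as an example with the letters in capitals.
Mirlet7g: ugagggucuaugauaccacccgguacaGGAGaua

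The members without the letters were Mir98, Mirlet7b and Mirlet7c-2, at 7892, 4130 and 107 CPM, which lie within the span of the other 7 (123 to 51133 CPM) apart from Mirlet7c-2, the lowest of all. A match describes letters only, and LIN28 binding was not measured.

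Several members lie close to another miRNA gene on the same strand, in clusters thought to be copied from DNA as one transcript. On chromosome 13, Mirlet7a-1 (chr13:48538179-48538272, minus strand) and Mirlet7d (chr13:48536012-48536114) both overlap exons of the long non-coding RNA 6720427I07Rik, 2158 bases apart. Mirlet7d took 98.8% of the counts of this pair in replicate 1 and 98.3% in replicate 2, and exceeded Mirlet7a-1 by 80.2-fold and 57.3-fold. Genes without a row, such as Mirlet7f-1, are outside these shares, and so are multimapping reads. On chromosome 15, Mirlet7c-2 (chr15:85706603-85706697, plus strand) and Mirlet7b (chr15:85707319-85707403) lie in exons of Lncppara, and Mirlet7b was 42.8-fold and 35.3-fold the higher. The X-linked pair lies in an intron of Huwe1, which encodes a ubiquitin ligase, with Mirlet7f-2 at chrX:151912346-151912428 and Mir98 at chrX:151913214-151913321 on the plus strand. There the gap was far smaller, with Mir98 3.78-fold (first library) and 3.33-fold (second library) above Mirlet7f-2. In each of these 3 pairs the gene with the single-locus 5p sequence had the higher count.

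The remaining duplicated members sit beside miRNAs of the miR-99/100 and miR-125 families, in clusters kept through animal evolution in which miR-125 is the homologue of worm lin-4. Mirlet7c-1 (chr16:77599657-77599750, plus strand, in an intron of Mir99ahg) starts 721 bases from Mir99a, at 39249 and 34741 CPM. Mir99a was 357-fold and 254-fold above Mirlet7c-1. Mirlet7a-2 (chr9:41536716-41536811, plus strand, in an intron of 3110039I08Rik) starts 5291 bases from Mir100, which had 2394 and 2126 CPM and exceeded it by 14.7-fold and 10.02-fold. Over the 5 clusters with a neighbour within 10 kb, family members held 41.4% of counts in replicate 1 and 43.8% in replicate 2. Mir125b-1 and Mir125b-2, which lie further away in the same 2 clusters, had means of 284 CPM ± 16.2 and 401 CPM ± 10.2 (n = 2). By name these are copies of miR-125b, and reads that fit both would have been set aside as multimapping. How many were was not tested, so no level of miR-125b can be read from these means. Mir99b (19142 CPM ± 701) and Mir125a (3444 CPM ± 437) lie near Mirlet7e on chromosome 17. Mirlet7e has no row among the counts and was not analysed here.

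**Figure D3:**
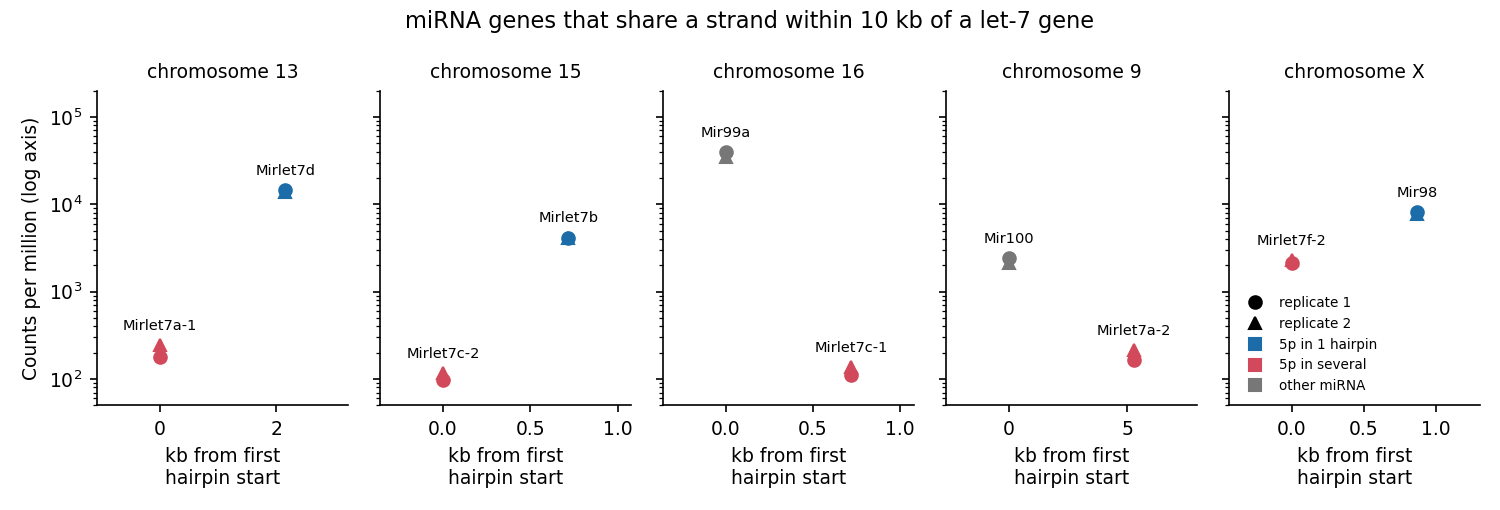
Level in CPM on a log axis against the distance in kb from the start of the first hairpin, for the 5 clusters with another counted miRNA gene within 10 kb (circles, replicate 1; triangles, replicate 2; grey, miRNAs outside the family). Each duplicated let-7 gene (red) lies below its neighbour, from the 3.78-fold and 3.33-fold gap of Mirlet7f-2 to the 357-fold and 254-fold gap of Mirlet7c-1.

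Other miRNA genes with the let-7 seed had no counts or no row. Of 1738 mature sequences in RefSeq, 13 have this seed, and the counted genes outside the family among them were Mir1961 and Mir7k (let-7k). Both had 0 counts in both libraries, which for reads placed at a single locus allows up to 0.585 and 1.29 CPM, the level of 3 counts in each library. Multimapping reads are outside this limit, so it does not bound the level of these miRNAs, whose RefSeq sequences are short (17 nt and 19 nt). Mirlet7e and Mirlet7f-1 also have the seed and no row. Mir7j, named let-7j but outside the membership rule and chosen here after its values were seen, differs from let-7i-5p by G8U within the overlap of both sequences and so has another seed. It had 336 and 148 counts (65.5 and 63.5 CPM), and Mirlet7i exceeded it by 647-fold and 573-fold.

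The libraries were also compared with each other, which measures agreement of replicates and no condition. Log2 ratios are of replicate 2 to replicate 1, scaled by the trimmed mean of M values (TMM). Each gene was tested with a two-sided exact binomial test, with Benjamini-Hochberg adjustment over the 404 genes that had at least 10 counts in all, as every member did. The summed family was slightly lower in replicate 2, at a log2 ratio of -0.17 (exact 95% interval -0.18 to -0.17), and at -0.085 with library totals in place of TMM. Among members the widest gap in CPM was that of Mirlet7i (42404 and 36393 CPM, log2 ratio -0.31). The log2 ratio furthest from no change was that of Mirlet7a-1 (0.35), in the other direction, so the sum does not describe each member alike. Binomial tests of this kind see counting error alone. Of all tested genes 41.8% passed an adjusted p of 0.05 (17.8% higher and 24.0% lower in replicate 2), with 73.8% among genes of at least 100 CPM. Against that background 7 of the 10 members passed, 5 lower and 2 higher in replicate 2. When the spread between replicates was added through a common dispersion in edgeR, estimated from the same pair of libraries (a coefficient of variation of 18.3%), no member passed (0 of 10, adjusted p = 1 for each, and 0 at an unadjusted p under 0.05). The same test called 0.248% of all genes, which was 1 gene, Mir208a of heart muscle (299 and 11.6 CPM in replicates 1 and 2). The difference under test is part of that dispersion, so failing to pass does not show that the replicates agree.

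Members with a single-locus and with a duplicated 5p sequence fell into separate ranges in this comparison. With TMM all 5 single-locus members were lower in replicate 2. Their log2 ratios were -0.31 for Mirlet7i, -0.17 for Mir98, -0.13 for Mirlet7d, -0.10 for Mirlet7g and -0.09 for Mirlet7b. The weakest of them was Mirlet7b (binomial adjusted p = 3.2e-06). With library totals these ratios were -0.22 for Mirlet7i, -0.085 for Mir98, -0.045 for Mirlet7d, -0.012 for Mirlet7g and 0.0018 for Mirlet7b. Their size and shared direction thus depended on the scaling. With TMM the duplicated members lay from 0.01 for Mirlet7f-2 to 0.35 for Mirlet7a-1, and the ranges of the classes did not overlap. With 1 mismatch allowed they do, since Mirlet7i and Mirlet7b then count as shared. Mirlet7a-1 (adjusted p = 2.57e-05) and Mirlet7a-2 (0.29, adjusted p = 0.00145) passed the binomial test. Mirlet7c-1 (0.22, adjusted p = 0.0658), Mirlet7c-2 (0.19, adjusted p = 0.168) and Mirlet7f-2 (adjusted p = 0.915) did not. With library totals in place of TMM, 9 members passed, 5 higher and 4 lower, Mirlet7b moved to a log2 ratio of 0.0018 and did not pass (adjusted p = 0.988), while all tested genes went from 72 higher and 97 lower to 112 higher and 65 lower. With DESeq2 size factors 8 members passed, 3 higher and 5 lower, beside 164 of the 404 tested genes, 81 higher and 83 lower. In each of these scalings the 5 duplicated members lay above the 5 single-locus members. A change of scaling shifts all members by nearly the same amount, so this order was fixed in advance and adds no support. The median of the members' absolute log2 ratios was 0.18, against 0.23 over all tested genes. These medians are not matched for level. The tested genes include some with few counts, such as Mir7647 (11 and 0 counts, log2 ratio -1.68). The lowest member, Mirlet7c-2, had a mean of 107 CPM. Whether members differed less between libraries than other genes of similar level was not tested.

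**Figure D4:**
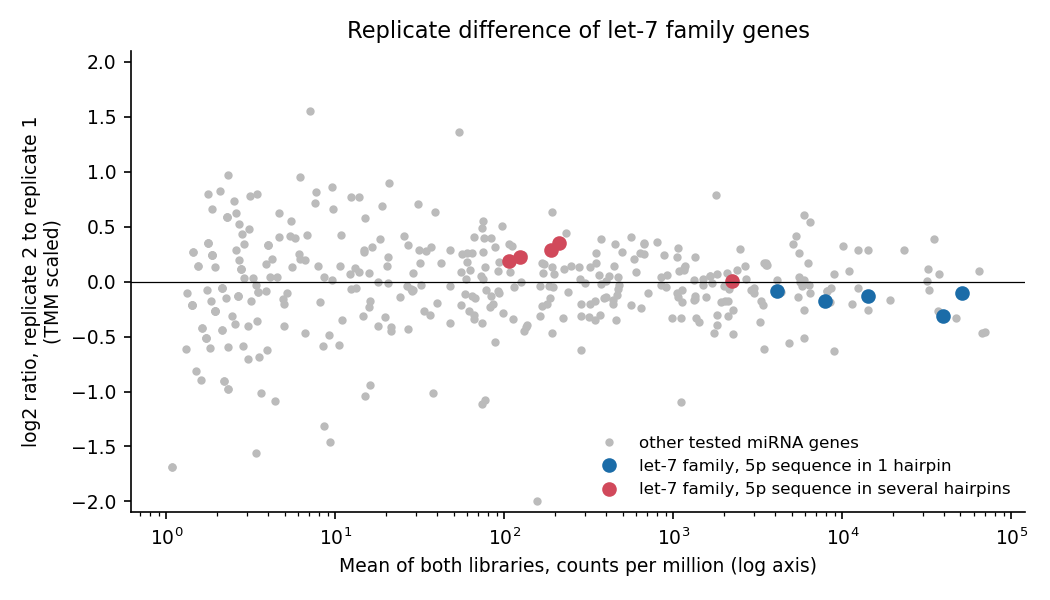
Log2 ratio of replicate 2 to replicate 1 (TMM scaled) against mean CPM on a log axis, for the 404 tested miRNA genes. The let-7 genes lie inside the cloud of other genes (grey), with those of 1 hairpin (blue) from -0.31 to -0.09 (Mirlet7b, the highest of them, is at 0.0018 with library totals) and those of 2 hairpins (red) from 0.01 to 0.35, and 1 gene beyond the axis limit of 2, Mir208a, is drawn at the limit.

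The neighbouring miRNAs of the miR-99/100 and miR-125 families were taken through the same test, with 6 of 6 passing, 5 lower and 1 higher (Mir125a, 0.17) in replicate 2, beside the 73.8% of all genes of at least 100 CPM, a level that all 6 exceed, and none (0 of 6, with 0 at an unadjusted p under 0.05) with the dispersion added in edgeR. Among the 99 other genes of at least 1000 CPM, the ratios nearest to that of the summed family were those of Mir140 (-0.18), Mir181a-1 (-0.18) and Mir92b (-0.17). With 2 libraries this likeness rests on 1 ratio per gene and is a description only.

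The labelled tissue was checked against miRNAs known from lung cell types. Endothelial Mir126a stood at 76033 and 58438 CPM, and the 5 epithelial genes of the miR-200 family summed to 33294 and 33730 CPM. The smooth muscle pair Mir143 and Mir145a summed to 79791 and 62023 CPM. Another 4 mesenchymal genes (Mir199a-1, Mir199a-2, Mir199b and Mir214) summed to 9078 and 10251 CPM. Most of that sum was Mir214, at 8430 and 9409 CPM. Whether reads of the Mir199 genes were set aside as multimapping was not tested. Red cell miRNAs summed to 497 and 392 CPM, and Mir223 of white blood cells stood at 589 and 540 CPM. Of markers of other tissues, the liver miRNA Mir122 stood at 22.4 and 39.5 CPM, and the striated muscle list summed to 355 CPM in replicate 1 and 50.2 CPM in replicate 2. In that list Mir208a (299 and 11.6 CPM) and Mir208b (49.9 and 25.7 CPM) were lower in replicate 2, whereas Mir206 (6.24 and 12.9 CPM) was higher. Of 5 counted neuronal genes, 4 (Mir124a-1, Mir124a-2, Mir124a-3 and Mir9-2) were at 0 counts in both libraries, as were Mir133a-1 and Mir133a-2 of the muscle list. These miRNAs are each known to be made at several loci, whose reads the counting sets aside, so the zeros say nothing about nerve or muscle RNA in the samples. let-7 miRNAs are made in most cell types, so the counts cannot be assigned to one of them, and in bulk tissue fewer cells of a type and less RNA per cell cannot be told apart. The part of such cells in the let-7 levels was not tested.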

How the data were processed

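The authors deposited whole-number counts per miRNA gene for each library, in columns that on their values are counts regardless of strand, on the gene strand and on the opposite strand. Per the deposited readme they derive from alignments to mm10 with GENCODE M4. The aligner and counter were not given in the sources used here, nor was a mismatch limit. Summary entries (multimapping, unmapped at 12.7% and 11.7%, no feature at 4.1% and 3.93%, ambiguous at 0%) stayed out of totals. The gene-strand column was used, and opposite-strand counts of members were 0 except 3 and 1 for Mirlet7b. A single count equals 0.195 and 0.429 CPM in the respective libraries. Of 1973 identifiers, 1894 matched GENCODE M21, which gave symbols, coordinates and hosts. Columns with no sample numbered 0.

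Levels are mean ± SD (n = 2), with exact (Clopper-Pearson) 95% intervals for shares. Ratios used a pseudocount of 1 CPM. The test script was tested on simulated data that held counting error alone, with no spread between replicates and no TMM scaling. Alternatives covered scaling, count filter, strand column, denominator, dispersion, mismatch and cluster distance. P-values measure only the difference between these 2 libraries. Named genes were all members, same-strand miRNA genes within 10 kb, genes with the let-7 seed, the miR-99/100 and miR-125 genes, rank neighbours of the top 3 members, the 3 genes nearest in ratio and tissue markers. Members and lists were chosen with earlier results of these data known. Software was R 4.3.3, edgeR 4.0.16, DESeq2 1.42.0 (size factors) and Python 3.11.15 with scipy 1.17.1.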

Additional observations from a re-analysis of the deposited data

How the results depend on the processing

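Levels rest on 2 libraries and on reads placed at a single locus. The family's share of counts moved from 11.96% to 12.9% without the most abundant gene in the denominator, to 6.92% with multimapping, no-feature and ambiguous reads in it, and to 6.85% without Mirlet7g. It stayed within the spread between replicates with the unstranded column. Leaving out either replicate gave 11.6% and 12.3%, which are the shares of the single libraries. With n = 2 these always lie within 1 SD of the mean, so this is no check of stability. With 1 mismatch allowed, single-locus members held 61.3% of family counts in place of 97.6%. With neighbours within 50 kb, family members held 66.8% of cluster counts in place of 42.6%, because Mirlet7g then counts as a clustered gene. The summed ratio of -0.17 became -0.085 with library totals, -0.15 with DESeq2 size factors and -0.23 without Mirlet7g. Of 7 members that passed the binomial test, 0 passed with the common dispersion in edgeR. That dispersion came from the same 2 libraries, so it holds the difference under test. Mirlet7b changed sign with library totals (0.0018). Of single members' levels, 10 of 10 moved by more than 1 SD with the larger denominator, 5 without the top gene and 3 with the unstranded column. The count of 6 members above 1000 CPM was the same in every alternative run. No paired analysis was possible because the labels give 1 group.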
